A study of Mus musculus with 4 samples.

Results

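Peroxisomes are small organelles that shorten very long, branched and unsaturated fatty acids, start the synthesis of ether lipids, and remove the hydrogen peroxide that these reactions give off. Proteins of the Pex family (peroxins) build the organelle membrane and carry enzymes from the cytosol into its interior, the matrix. ABC transporters of subfamily D bring activated fatty acids across the membrane, and Abcd2 encodes one of them. Microglia are the resident macrophages of the brain.

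The 31 peroxisome genes described here were chosen by their known function around Abcd2, which was selected on its strong decrease with lipopolysaccharide (LPS) on these same arrays. Of the 31 genes, 30 had a probe set that the platform annotation ties to exactly 1 gene symbol, among 19938 genes so measured; Prdx5, an antioxidant peroxiredoxin, was not analysed here. Each of the 30 had 1 such probe set. For a comparison, a gene had to reach on its higher array a floor of 4.26 on the log2 scale, the median over all probe sets. By that rule 28 members were compared, and Ehhadh and Pex26 stayed below the floor on every array. Because the LPS contrast served to choose the set, all LPS differences below are descriptions and carry no test.

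Microglial RNA had been hybridised to 4 arrays of the Affymetrix Mouse Gene 1.0 ST type, 1 for each group: Bid-/- (KO) with LPS for 3 h, Bid-/- (KO) without an agent, wild type with LPS for 3 h, and wild type without an agent. Bid encodes a cell death protein, and LPS is a bacterial cell wall component sensed through TLR4. The strain C57Bl is given for the wild-type (WT) arrays. For the Bid-/- arrays the background, and for all 4 arrays the sex, age, LPS dose, isolation of the cells and number of animals, are not stated in the sources used here. No group had a replicate, and differences between arrays thus stand without a check by replicates.

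The arrays had medians between 4.24 and 4.28 over 28944 probe sets, and their number limits the precision. Bid itself was not lower under its label in both conditions. Its probe set read 5.97 (LPS, labelled Bid-/-) against 5.02 (LPS, WT), and 5.53 (control, labelled Bid-/-) against 5.69 (control, WT). Where its probes lie against the deleted part is not known here, so genotypes are named by label throughout. The Y-linked gene Uty was 1.61 (LPS) and 0.91 (control) higher on the arrays labelled Bid-/-, and Nnt, which varies between C57BL/6 substrains, differed by -0.79 and -0.81. Sex, background and preparation of the cells therefore cannot be told apart from genotype. The LPS response was present under both labels: Tnf was higher with LPS by 3.03 on the arrays labelled Bid-/- and by 2.87 in WT. Of 14 microglia markers, 11 of the 13 with a value reached the floor, with Csf1r between 10.10 and 10.78 and C1qa between 11.21 and 11.64 on the 4 arrays. P2ry12 read only 3.90 to 4.38, and Siglech and Gpr34 stayed below the floor. All 6 neuron markers were below the floor (0 of 6 reached it). Of 7 astrocyte markers, Gfap and Aqp4 were below it and 5 reached it, with Gja1 between 4.84 and 5.99. Of 8 oligodendrocyte lineage markers, 5 of the 7 with a value reached it, with Mbp between 5.64 and 5.97. Of 6 monocyte and border macrophage markers, 1 of the 5 with a value reached it, Pf4, between 8.16 and 9.63.

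Peroxisome genes were, as a group, lower after LPS under both labels. With LPS, 25 of 28 members were below their control on the arrays labelled Bid-/- and 25 of 28 in WT. The same was true of 60.1% of 10995 genes on the arrays labelled Bid-/- and 54.7% of 11129 genes in WT. The member median was -0.41 on the arrays labelled Bid-/-, where all genes had a median of -0.10, and -0.47 in WT, where all genes had -0.05. In both comparisons 22 of 28 members (78.6%) were lower, against 42.1% of the 11326 genes that reached the floor on any array. With trends in intensity and gene length removed, 24 members were lower under the Bid-/- label and 22 in WT, against 49.0% and 48.1% of all genes. As deposited, the remaining 6 members, Pex6, Pex16, Phyh, Eci2, Agps and Far1, had opposite signs under the 2 labels. These counts and medians include Abcd2, which was selected on its decrease on these same arrays. Without it, 24 of 27 members were lower under each label as deposited, and 21 of 27 under both. The medians were then -0.38 on the arrays labelled Bid-/- and -0.45 in WT. In such bulk RNA, fewer cells of a type and less RNA per cell cannot be told apart.

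Changes of at least 1.5-fold (0.585 on the log2 scale) ran in 1 direction. Of 28 members, 9 were at least 1.5-fold lower with LPS under the Bid-/- label and 9 in WT, beside 10.4% and 11.1% of all genes. No member (0 of 28) was as much higher under either label, beside 6.88% and 5.8% of all genes. Abcd2, Decr2, Scp2, Hsd17b4, Acox3 and Gnpat, 6 members in all, were at least 1.5-fold lower under both labels, a change found for 5.35% of all genes; the opposite change was found for 3.63% of all genes and 0 members. Since Abcd2's decrease chose the set, the counts without it are 8 of 27 under each label and 5 of 27 under both. Members just inside the 1.5-fold line were Gnpat (-0.59 labelled Bid-/-, -0.60 WT) and, in WT, Acox3 (-0.59); just outside it in WT were Acaa1a (-0.57) and Pex2 (-0.56). These counts depended on scaling. With a trend of the difference on intensity removed, 5 members under each label were 1.5-fold lower, beside 5.73% of all genes under the Bid-/- label and 7.67% in WT. Under both labels, Abcd2, Decr2 and Hsd17b4 were then 1.5-fold lower, 3 members beside 3.10% of all genes, while Scp2, Acox3 and Gnpat were not; the same 3 members met the line under both labels with a gene length trend removed as well. Quantile normalization took Acox3 and Gnpat off that list.

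**Figure D1:**
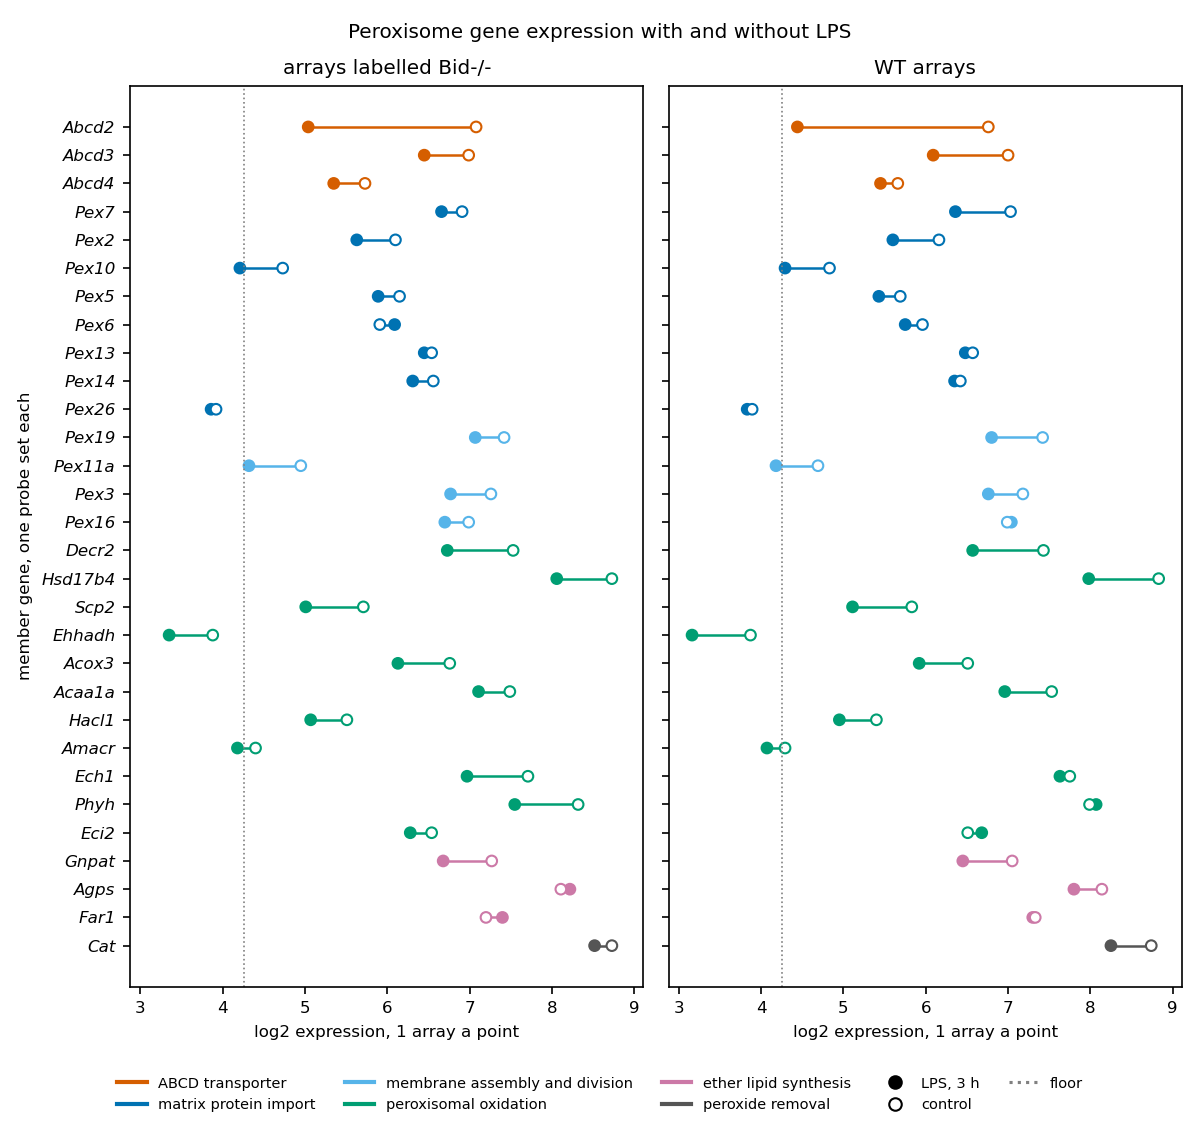
Log2 expression of the 30 measured peroxisome genes (rows, coloured by role) on the 2 arrays labelled Bid-/- (left) and the 2 WT arrays (right); each point is 1 array, filled with LPS for 3 h and open for control, and the dotted line is the floor of 4.26. Filled points lie left of open ones for most genes, with differences of -2.04 and -2.32 for Abcd2, while Agps, Far1 and Pex6 on the left and Eci2, Phyh and Pex16 on the right show the reverse.

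Among the ABC transporters, Abcd2 stood far from its relatives. Abcd2 imports very long chain and polyunsaturated acyl-CoAs into peroxisomes. It read 5.04 with LPS and 7.08 without it on the arrays labelled Bid-/-, and 4.44 with LPS and 6.76 without it in WT. Both LPS arrays lay below both control arrays, at a 4.11-fold lower level on the array labelled Bid-/- and a 4.99-fold lower level in WT. This was the 9th lowest LPS difference of 10995 genes on the arrays labelled Bid-/- and the 6th lowest of 11129 in WT, as its selection requires. Abcd3, known as PMP70, imports branched-chain acyl-CoAs, dicarboxylic acyl-CoAs and bile acid precursors. It read 6.45 with LPS and 6.99 without it on the arrays labelled Bid-/-, and 6.09 with LPS and 7.00 without it in WT. The LPS arrays were again both lower, with differences of -0.54 and -0.91, and only the WT difference passed 1.5-fold. Abcd4, which despite its family name acts in lysosomes, where it exports vitamin B12, read 5.35 with LPS and 5.73 without it on the arrays labelled Bid-/-, and 5.45 with LPS and 5.66 without it in WT. Its differences of -0.38 and -0.21 were the smallest of the 3 transporters.

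The import machinery for matrix enzymes had smaller LPS differences than the oxidation enzymes. Pex5 is the receptor for enzymes with the common C-terminal targeting signal (PTS1), and Pex7 the receptor for the rarer N-terminal one (PTS2). Pex7 read 6.66 with LPS and 6.91 without it on the arrays labelled Bid-/-, and 6.36 with LPS and 7.03 without it in WT. It was the only import gene to pass 1.5-fold, and did so in WT alone (-0.67, against -0.25 on the arrays labelled Bid-/-). Pex5 had the same difference, -0.26, under both labels, and read 5.89 with LPS and 6.15 without it on the arrays labelled Bid-/-, and 5.43 with LPS and 5.69 without it in WT. Pex2 (-0.47 labelled Bid-/-, -0.56 WT) and Pex10 (-0.52, -0.54) encode RING ubiquitin ligases that act on the returning receptor, and both came close to 1.5-fold under both labels. The docking proteins Pex13 (-0.09, -0.09) and Pex14 (-0.25, -0.07) and the receptor-extracting ATPase Pex6 (0.18, -0.21) lay nearer to 0. Pex26, the membrane anchor of that ATPase, read between 3.83 and 3.92 on the 4 arrays and was not counted. The median of the 7 import genes compared was -0.25 on the arrays labelled Bid-/- and -0.26 in WT.

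Of 4 genes for membrane assembly and division, 4 were lower with LPS under the Bid-/- label and 3 in WT. The shares of all genes lower were 60.1% and 54.7%. Pex3, Pex16 and Pex19 insert proteins into the peroxisomal membrane, and Pex11a helps the organelle elongate and divide. Pex19 read 7.07 with LPS and 7.42 without it on the arrays labelled Bid-/-, and 6.80 with LPS and 7.42 without it in WT. Pex11a read 4.32 with LPS and 4.95 without it on the arrays labelled Bid-/-, and 4.18 with LPS and 4.69 without it in WT, close to the floor. Thus Pex19 passed 1.5-fold in WT alone (-0.62, against -0.35) and Pex11a on the arrays labelled Bid-/- alone (-0.63, against -0.51 in WT). Pex3 had similar differences, -0.49 and -0.42, and Pex16 showed -0.29 on the arrays labelled Bid-/- and 0.05 in WT.

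The enzymes of peroxisomal oxidation held 4 of the 6 members that were 1.5-fold lower under both labels as deposited, and 2 of 3, Decr2 and Hsd17b4, with an intensity trend removed. At that line under both labels, the shares of all genes were 5.35% as deposited and 3.10% with an intensity trend removed. These enzymes made up 10 of the 28 members compared. Of the 10, 6 were 1.5-fold lower with LPS under the Bid-/- label and 4 in WT, beside 10.4% and 11.1% of all genes. The medians of the 10 enzymes were -0.65 and -0.51. Decr2, the peroxisomal dienoyl-CoA reductase needed for polyunsaturated chains, read 6.73 with LPS and 7.53 without it on the arrays labelled Bid-/-, and 6.57 with LPS and 7.43 without it in WT. Hsd17b4, the D-bifunctional protein that carries out the middle steps of the cycle, read 8.06 with LPS and 8.73 without it on the arrays labelled Bid-/-, and 7.98 with LPS and 8.83 without it in WT. Scp2, which encodes the thiolase SCPx and sterol carrier protein, read 5.01 with LPS and 5.71 without it on the arrays labelled Bid-/-, and 5.11 with LPS and 5.83 without it in WT. For these 3 genes every LPS array lay below every control array, with differences of -0.80 and -0.86, -0.67 and -0.85, and -0.70 and -0.72 on the arrays labelled Bid-/- and in WT. Acox3, the oxidase for branched-chain acyl-CoAs, read 6.13 with LPS and 6.76 without it on the arrays labelled Bid-/-, and 5.92 with LPS and 6.51 without it in WT, differences of -0.63 and -0.59. Acaa1a, the straight-chain thiolase, differed by -0.38 and -0.57. Hacl1, which cleaves hydroxylated acyl-CoAs in alpha-oxidation, differed by -0.44 and -0.45, and Amacr, the racemase for branched chains, by -0.22 and -0.22. All 3 were lower under both labels and short of 1.5-fold. Ehhadh, the L-bifunctional protein, read 3.35 with LPS and 3.88 without it on the arrays labelled Bid-/-, and 3.16 with LPS and 3.87 without it in WT, all below the floor.

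Phyh and Ech1, a pair of further oxidation enzymes, were 1.5-fold lower with LPS under the Bid-/- label with little difference in WT. Phyh, the first enzyme of phytanic acid alpha-oxidation, read 7.55 with LPS and 8.32 without it on the arrays labelled Bid-/-, and 8.07 with LPS and 7.99 without it in WT. Ech1, a dienoyl-CoA isomerase, read 6.97 with LPS and 7.71 without it on the arrays labelled Bid-/-, and 7.63 with LPS and 7.75 without it in WT. Eci2, an enoyl-CoA isomerase that stayed short of 1.5-fold under both labels, read 6.28 with LPS and 6.54 without it on the arrays labelled Bid-/-, and 6.68 with LPS and 6.51 without it in WT. In each case the LPS array labelled Bid-/- was the lowest of the 4. For Eci2 the differences of -0.26 (labelled Bid-/-) and 0.17 (WT) became -0.07 and 0.31 with an intensity trend removed, and for Ech1 the -0.74 under the Bid-/- label became -0.57 with intensity and gene length trends removed. Subtracting the WT LPS difference from the one labelled Bid-/- gave -0.85 for Phyh, -0.62 for Ech1 and -0.43 for Eci2. Phyh and Ech1 were the 2 members with a difference of response of at least 1.5-fold downward, beside 6.06% of all genes; 0 members had one upward, beside 3.26%. With 4 arrays this difference could not be tested.

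The ether lipid and peroxide genes were mixed. Gnpat and Agps encode the enzymes of the first steps of ether lipid synthesis inside the peroxisome, and Far1 makes the fatty alcohol they use. Gnpat read 6.68 with LPS and 7.27 without it on the arrays labelled Bid-/-, and 6.45 with LPS and 7.05 without it in WT, with differences of -0.59 and -0.60. Agps read 8.22 with LPS and 8.11 without it on the arrays labelled Bid-/-, and 7.80 with LPS and 8.14 without it in WT. Far1 read 7.40 with LPS and 7.20 without it on the arrays labelled Bid-/-, and 7.30 with LPS and 7.33 without it in WT. Agps (0.11 labelled Bid-/-, -0.34 WT) and Far1 (0.20, -0.03) thus lay close to or above control under the Bid-/- label. Cat, the catalase that breaks down hydrogen peroxide, read 8.52 with LPS and 8.73 without it on the arrays labelled Bid-/-, and 8.25 with LPS and 8.74 without it in WT, with differences of -0.21 and -0.49.

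**Figure D2:**
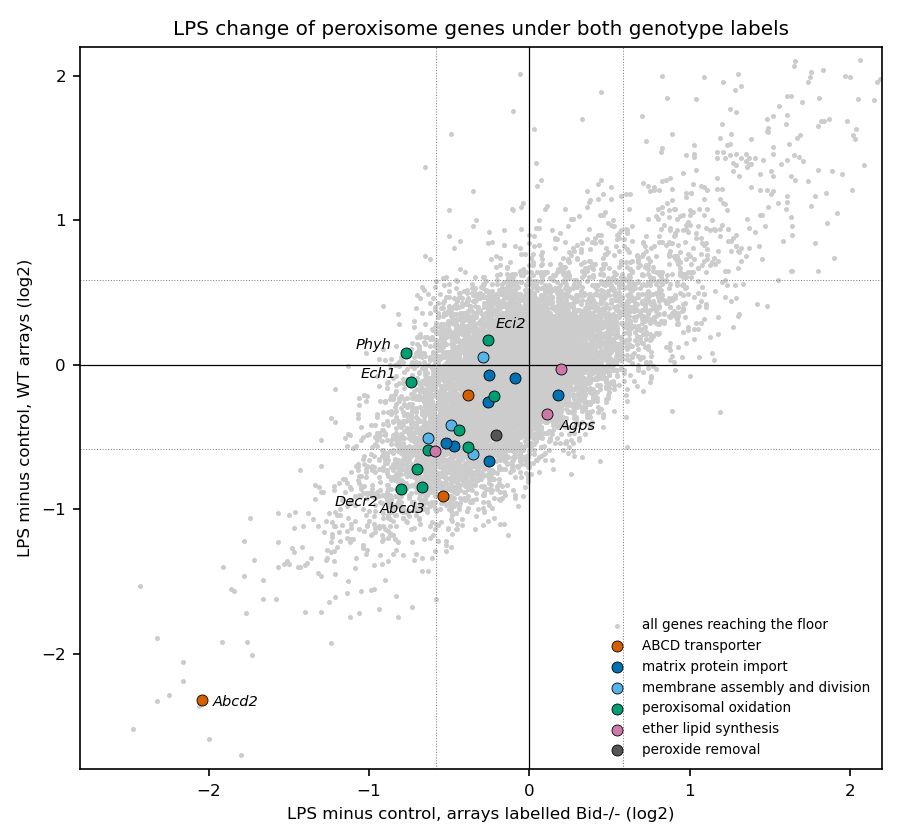
LPS minus control on the log2 scale for the arrays labelled Bid-/- (horizontal) and the WT arrays (vertical), with 11326 genes in grey, of which 60 lie beyond the axes, and 28 peroxisome genes coloured by role; dotted lines mark 1.5-fold. Of the 28 genes, 22 lie in the lower left quadrant, with Abcd2 the member nearest its corner, and Phyh, Eci2 and Pex16 lie above the horizontal zero line at the left.

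Promoter sequence was available from RefSeq (GRCm38.p6) for 24 of the 30 measured members, in 28 promoters counting alternative starts. Abcd2 was among the members without it, so the motif counts below do not cover Abcd2. The 250 bases before the annotated start are shown for Decr2, Scp2 and Gnpat, which were at least 1.5-fold lower with LPS under both labels as deposited, and for Far1, which was within 0.20 of control under both, so that the letters can be set beside the readings. Each line runs 5′ to 3′ on the strand of the gene, with capitals for 4 motifs searched on both strands: AGGTCA, the core read by nuclear receptors such as the PPARs; CACGTG, the E-box; CCAAT, the CCAAT box; and GGGCGG, the GC box. A motif on the opposite strand appears as its reverse complement, also in capitals.
Decr2, GRCm38.p6 chr17:26090165-26090414, minus strand: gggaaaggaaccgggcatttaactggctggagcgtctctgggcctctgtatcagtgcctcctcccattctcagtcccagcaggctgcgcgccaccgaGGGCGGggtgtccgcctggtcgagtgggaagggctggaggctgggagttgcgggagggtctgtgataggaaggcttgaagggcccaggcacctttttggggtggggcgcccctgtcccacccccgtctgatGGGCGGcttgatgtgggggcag
Scp2, GRCm38.p6 chr4:108118548-108118797, minus strand: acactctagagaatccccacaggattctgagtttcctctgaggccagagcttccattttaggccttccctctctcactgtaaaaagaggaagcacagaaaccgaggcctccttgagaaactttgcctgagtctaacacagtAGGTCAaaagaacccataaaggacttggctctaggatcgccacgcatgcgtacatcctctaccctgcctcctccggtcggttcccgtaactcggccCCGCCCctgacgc
Gnpat, GRCm38.p6 chr8:124862783-124863032, plus strand: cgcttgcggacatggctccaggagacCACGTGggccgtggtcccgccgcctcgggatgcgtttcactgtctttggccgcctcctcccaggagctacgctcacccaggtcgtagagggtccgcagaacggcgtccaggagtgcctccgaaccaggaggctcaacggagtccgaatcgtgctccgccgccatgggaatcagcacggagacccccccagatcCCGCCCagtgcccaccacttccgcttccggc
Far1, GRCm38.p6 chr7:113513584-113513833, plus strand: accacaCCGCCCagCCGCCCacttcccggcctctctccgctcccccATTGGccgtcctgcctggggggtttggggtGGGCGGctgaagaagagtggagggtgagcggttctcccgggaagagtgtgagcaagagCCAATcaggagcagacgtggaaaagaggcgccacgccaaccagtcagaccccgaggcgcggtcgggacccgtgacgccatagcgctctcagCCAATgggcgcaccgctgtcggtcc

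The nuclear receptor core AGGTCA was found in 2 of 28 member promoters (7.14%), those of Scp2 and Cat, and in 12.8% of 21262 promoters of protein-coding genes with the same window. CACGTG was found in 1, that of Gnpat (3.57%), against 6.63%. CCAAT was found in 11 (39.3%) against 35.4%, and GGGCGG in 19 (67.9%) against 42.6%. The member promoters were richer in G and C, with a median of 60.2% against 55.6%, and its part in the last count was not tested. Far1 held 3 GC boxes and 3 CCAAT boxes, Decr2 held 2 GC boxes, and Scp2 and Gnpat held 1 GC box each. These 4 promoters are examples from genes with such LPS readings, so no comparison is drawn between them. Acox3, also 1.5-fold lower under both labels, had a promoter with a GC box that is not shown. The matches are descriptions of letters and were not tested for binding.

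Peroxisome genes outside the set were also mostly lower with LPS. Of 59 further peroxisome genes listed, 51 had a value and 32 reached the floor on any array. Of those that reached the floor in each comparison, 27 of 31 were lower on the arrays labelled Bid-/- (median -0.34). In WT 26 of 32 were lower (median -0.28), and the shares of all genes were 60.1% and 54.7%. At least 1.5-fold lower were 9 and 8, beside 10.4% and 11.1% of all genes. None (0) was 1.5-fold higher under either label, beside 6.88% and 5.8% of all genes. Crot, which couples shortened acyl groups to carnitine for export to mitochondria, read 6.15 with LPS and 7.36 without it on the arrays labelled Bid-/-, and 5.76 with LPS and 7.21 without it in WT. After Abcd2 it had the lowest LPS differences of all the peroxisome genes examined, -1.21 and -1.45. Idh1, the NADP-dependent isocitrate dehydrogenase of cytosol and peroxisomes, differed by -0.98 and -0.83. Dhrs7b, a reductase of ether lipid synthesis, differed by -0.83 and -0.68, Hsdl2, a peroxisomal dehydrogenase-like protein, by -0.76 and -0.65, and Usp30, a deubiquitinase of mitochondria and peroxisomes, by -0.82 and -0.66. These 5 of 32 were 1.5-fold lower under both labels, beside 5.35% of all genes.

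Genes of mitochondrial fatty acid oxidation were lower with LPS by similar amounts. All 17 of its genes were lower with LPS under the Bid-/- label and 16 of 17 in WT, with medians of -0.53 and -0.40. Of all genes, 60.1% and 54.7% were lower. At least 1.5-fold lower were 8 and 5 of the 17, beside 10.4% and 11.1% of all genes. Slc25a20, the carnitine carrier, differed by -0.72 on the arrays labelled Bid-/- and -1.13 in WT, and Etfdh, which passes electrons to the respiratory chain, by -0.69 and -1.06. Acadm, the medium-chain dehydrogenase, differed by -0.64 and -0.89, and Echs1, the short-chain hydratase, by -0.96 and -0.50. Lower readings of oxidation genes were thus not limited to peroxisomes on these arrays. Genes for elongation and desaturation had medians of -0.27 and -0.30, with 3 of 14 and 2 of 13 at least 1.5-fold lower. The shares of all genes at that line were 10.4% and 11.1%. Scd2, a desaturase, differed by -1.05 and -0.91, Hacd3, an elongation dehydratase, by -0.59 and -0.70, Fads1, a desaturase, by -0.73 and -0.30, and Elovl5, an elongase, by -0.45 and -0.30.

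Known regulators of peroxisomal genes did not share a direction. Of the 8 regulators compared on the arrays labelled Bid-/-, 5 were lower with LPS, and of 9 in WT, 5, with a median of -0.10 under each label. The shares of all genes lower were 60.1% and 54.7%. Ppard, a fatty acid sensing nuclear receptor, read 6.56 with LPS and 5.77 without it on the arrays labelled Bid-/-, and 6.35 with LPS and 5.79 without it in WT. Rxra, the partner of PPARs and LXRs, read 6.28 with LPS and 6.78 without it on the arrays labelled Bid-/-, and 5.77 with LPS and 6.73 without it in WT. These neighbours in the pathway went opposite ways, with differences of 0.79 and 0.56 for Ppard and of -0.50 and -0.96 for Rxra. Srebf2, the sterol-sensing transcription factor, was higher by 0.42 and 0.55, and Nr1h3, which encodes LXR-alpha, differed by -0.47 and -0.42. Ppara, the receptor best known for inducing peroxisomal genes in rodent liver, read between 3.61 and 3.76 on the 4 arrays, below the floor.

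**Figure D3:**
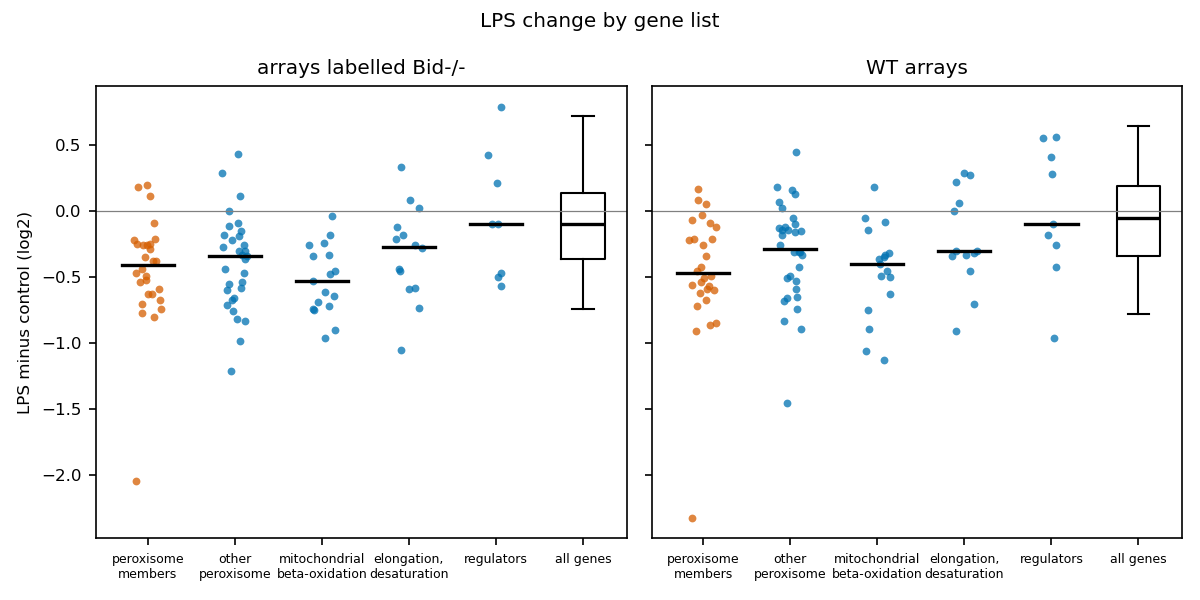
LPS minus control on the log2 scale for members and related gene lists on the arrays labelled Bid-/- (left) and the WT arrays (right); each point is a gene that reached the floor, thick lines are medians, and the box for all genes spans the quartiles with whiskers at the 5th and 95th percentiles. The member medians of -0.41 and -0.47 lie below the medians of all genes, -0.10 and -0.05, and beside those of mitochondrial beta-oxidation, -0.53 and -0.40.

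Fibroblast and mural markers differed between LPS and control arrays, mainly in WT, and between the control arrays of the labels. Of 10 fibroblast and mural markers, 8 reached the floor, and the list had a median of 5.77 with LPS and 5.89 without it on the arrays labelled Bid-/-, and of 5.83 with LPS and 5.13 without it in WT. The matrix gene Dcn differed with LPS by -0.65 on the arrays labelled Bid-/- and by 1.37 in WT. Pdgfrb, the 1 marker of this list 1.5-fold higher under both labels, differed by 1.11 and 0.76. The pericyte gene Rgs5 stayed below the floor. The median LPS difference of these 8 markers was -0.09 under the Bid-/- label, with 5 lower and 3 higher, and 0.76 in WT, with 8 higher. The microglia markers were lower with LPS by as much as the peroxisome genes: their median LPS difference was -0.48 under the Bid-/- label, with 11 of 11 lower, and -0.49 in WT, with 10 of 11 lower, beside member medians of -0.41 and -0.47. Their levels had a median of 7.87 with LPS and 8.80 without it on the arrays labelled Bid-/-, and of 8.29 with LPS and 8.57 without it in WT. The median LPS difference of astrocyte markers was 0.09 under the Bid-/- label (4 compared) and 0.26 in WT (5 compared). For 5 oligodendrocyte lineage markers it was 0.20 and -0.15, and Pf4 differed by -0.59 and 0.40. The part of any of these markers in the peroxisome results was not tested.

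Between the genotype labels the peroxisome genes differed little without LPS. On the control array labelled Bid-/-, 13 of 28 members were above and 13 below the WT control array, with a median of 0.00, against 0.01 for all genes. The shares of all genes were 51.6% above and 45.8% below. No member (0 of 28) was 1.5-fold lower or higher, beside 0.44% and 1.45% of all genes. The widest differences were for Pex5 (0.46), Phyh (0.33), Abcd2 (0.32), Pex11a (0.26) and Acox3 (0.25), and the other 23 members lay between -0.13 and 0.22.

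With LPS the spread between the labels was wider. Of 27 members compared, 18 were higher and 9 lower on the LPS array labelled Bid-/- than on the WT LPS array, with a median of 0.12, against 0.01 for all genes. The shares of all genes were 50.9% higher and 47.8% lower. Abcd2, at 5.04 against 4.44, was the 1 member at least 1.5-fold higher, beside 4.69% of all genes, and Ech1, at 6.97 against 7.63, the 1 member as much lower, beside 6.07% of all genes. Pex5 (0.46), Agps (0.42), Abcd3 (0.36), Pex6 (0.34) and Pex7 (0.30) were the next highest, and Phyh (-0.52), Eci2 (-0.40) and Pex16 (-0.34) the next lowest. Across 11017 genes, which are not independent replicates, this comparison ran with the length of the gene on the genome (Spearman rho 0.399); among the 27 members rho was 0.190, and the part of this trend in the members' values was not tested. With trends in intensity and gene length removed, the Ech1 difference was -0.59 and that of Abcd2 was 0.51, which no longer reached 1.5-fold.

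No member was 1.5-fold different in the same direction in both conditions (0 of 28), beside 0.194% of all genes lower and 0.415% higher. The additive limma fit, which estimates 1 genotype effect over both conditions from 4 arrays with 1 residual degree of freedom a gene, called 0 of 11326 genes (0%) and 0 of 28 members at an adjusted p under 0.05. Before adjustment, 709 genes (6.26%) and 2 members had a p under 0.05. Those were Pex5, higher by 0.46 on the arrays labelled Bid-/- (SE 0.11, limma adjusted p = 0.623), and Abcd2, also higher by 0.46 (SE 0.13, limma adjusted p = 0.623). A low p in this fit favours genes with like differences in both conditions, so their being higher in both adds no support. Higher in both conditions were 9 of 28 members, beside 3587 of 11326 genes. Neither Pex5 nor Abcd2 passed the adjustment. Pex5 and Pex26 lie on chromosome 6 with Bid, 44 and 2 protein-coding genes away from it, so for Pex5 the loss of Bid and a difference of that genomic region cannot be told apart. Pex26 stayed below the floor on every array, so its difference of 0.03 in both conditions is not interpreted.

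**Figure D4:**
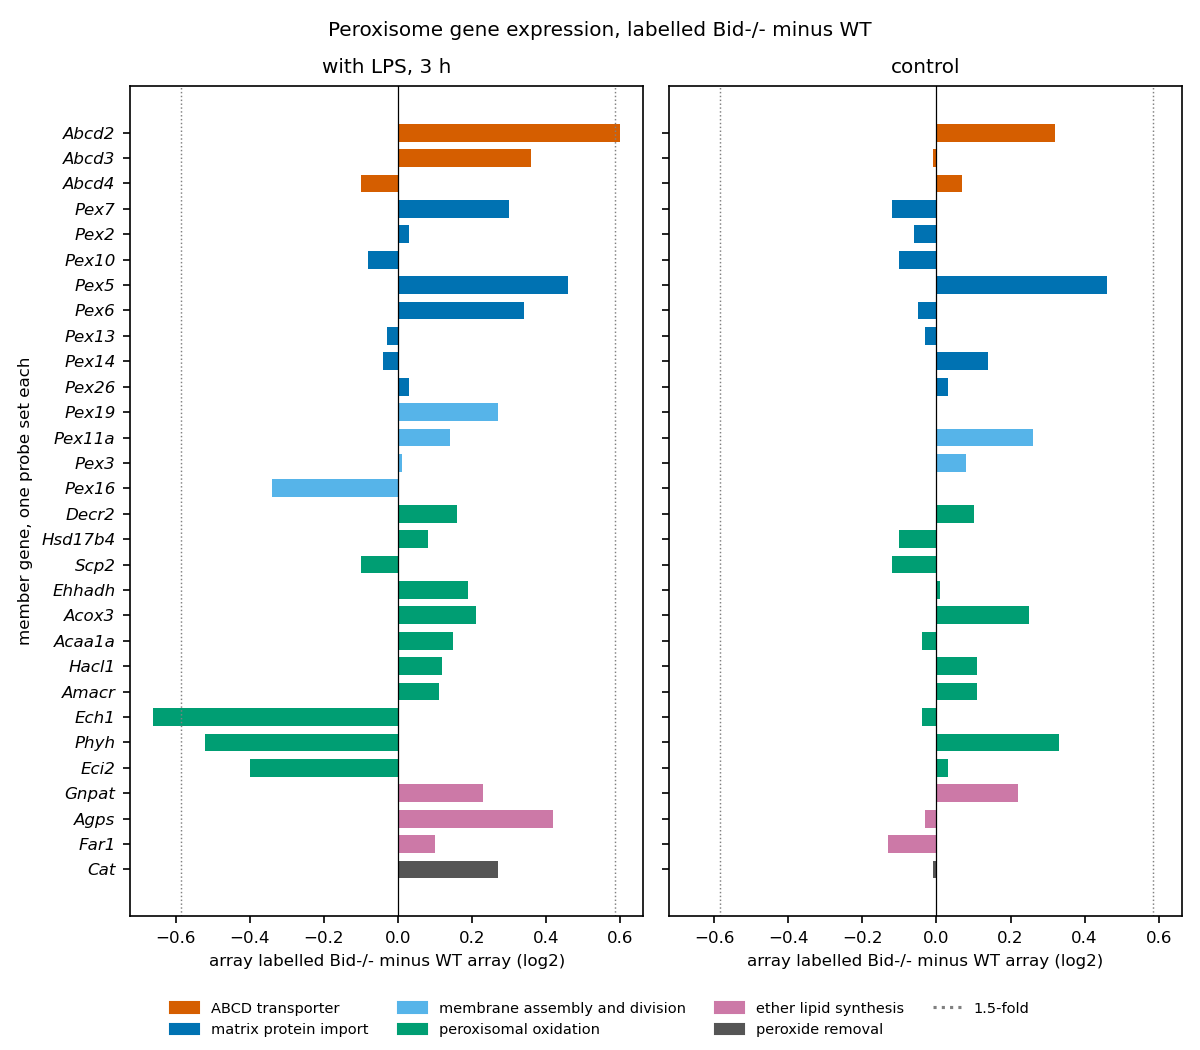
Log2 expression on the array labelled Bid-/- minus the WT array for 30 peroxisome genes, with LPS (left) and without (right); bars start at 0, colours mark roles and dotted lines mark 1.5-fold. With LPS only Abcd2 (0.60) and Ech1 (-0.66) cross the dotted lines, and without LPS no bar does.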

How the data were processed

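Affymetrix Mouse Gene 1.0 ST arrays were used, 1 for each of 4 groups. Per the submitters' processing notes, RMA, Affymetrix Expression Console and Partek 6.2 were used, with no role or order given, and the sources used here state no genome build. The authors deposited 1 value per probe set and array, taken here as log2 expression because the values run from 1.4 to 13.5 with like medians; the log base is not written. Where RMA was applied, it makes the arrays' distributions alike, which can hide any change common to most genes. The deposited distributions were alike but not equal, with highest values between 13.08 and 13.50.

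Genes were named from the platform annotation: 21789 of 28944 probe sets had 1 symbol, 1621 several and 5534 none. For genes with several probe sets the one with the highest mean was used. Genotype was tested with limma 3.58.1 in R 4.3.3 (genotype plus LPS, eBayes with an intensity trend, Benjamini-Hochberg over 11326 genes). Nothing says whether the arrays of a label came from separate cultures, so the spread behind p-values may be technical. Alternatives were the floor, the probe set rule, quantile normalization, removal of trends (lowess, statsmodels 0.14.6), a 2-fold limit and the fit's trend. Named genes were all members, related peroxisome genes 1.5-fold changed in the same direction under both labels, and up to 4 genes of each other list with the largest mean LPS change. The members and lists were chosen with earlier results of these data known.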

Additional observations from a re-analysis of the deposited data

Results flagged for a closer look

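Phyh was the only member for which the LPS differences under the 2 labels had opposite signs and lay at least 1.5-fold apart: -0.77 on the arrays labelled Bid-/- and 0.08 in WT, a difference of -0.85. Each sign rests on 1 array with LPS and 1 without, the WT value is close to 0, and the difference was not tested.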

How the results depend on the processing

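With 1 array a group, no array could be left out. With an intensity trend removed, 5 members were 1.5-fold lower with LPS under the Bid-/- label (median -0.27) and 5 in WT, beside 5.73% and 7.67% of all genes. In that setting 2 of 27 members were 1.5-fold lower on the LPS array labelled Bid-/- than on the WT LPS array, beside 7.04% of all genes. With intensity and gene length trends removed, 5 were lower with LPS under the Bid-/- label (median -0.21) beside 5.46% of all genes, and the WT median was -0.32. There 0 members were 1.5-fold higher on the LPS array labelled Bid-/- than on the WT LPS array, beside 3.29% of all genes. A floor 1 log2 unit higher also gave 0 members, beside 5.96% of all genes. At 2-fold, 1 member, Abcd2, was lower with LPS under each label, and 0.936% of all genes were lower under both. Between labels with LPS 0 members differed 2-fold, for which the share of all genes was not counted. Removing the intensity trend moved the median of all genes on the arrays labelled Bid-/- from -0.10 to 0.01; relative to all genes the member median was -0.31 as reported, -0.28 in that setting and -0.22 with both trends removed, and in WT -0.42, -0.40 and -0.33. The share of 1.5-fold changed genes that were higher with LPS was 39.9% on the arrays labelled Bid-/- and 34.4% in WT as reported, and 62.1% and 49.6% with that trend removed and 61.6% and 51.8% with both removed. The limma genotype fit called 40 genes after quantile normalization, 0 of them members, and 0 in its other settings. No member 1.5-fold changed in a comparison reversed in any setting. The cause of these shifts was not tested.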
